A study of Mus musculus with 6 samples.

Results

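The interferon-stimulated genes described here are 41 genes whose transcription is known to rise when cells receive interferon. They were chosen by symbol from a list, with earlier results of these data known. All 41 were found among the 26027 genes of the count table. RNA-seq measured them in Lin-/cKit+/eYFP+ cells of the bone marrow, labelled as immature haematopoietic multipotent progenitors, from C57BL/6 mice. Cells of 3 libraries were Srsf2 P95H/+, with 1 mutant copy of a splicing factor gene that is mutated in myeloid disease, and cells of the other 3 libraries were Srsf2 +/+ (WT). Mice of both genotypes also carried hScl-CreERT, a tamoxifen-inducible Cre recombinase whose name refers to the blood stem cell gene Scl, and R26eYFP, a reporter that recombination switches on. Both genotypes received tamoxifen in vivo, and the sort on eYFP kept only cells that had switched on the reporter. P95H/+ replicates 1 and 2 were female and P95H/+ replicate 3 was male, all at 32 weeks. WT replicate 1 was female at 54 weeks, and WT replicates 2 and 3 were male at 32 weeks. The labels name no interferon treatment, so the values describe the level that these genes have without added interferon.

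Type I interferons bind a receptor whose Jak kinases activate ISGF3, a complex that holds Stat2 and Irf9 and binds the interferon-stimulated response element (ISRE) near its target genes. Interferon gamma acts largely through a different element, the gamma-activated site (GAS). In mice, interferons are known to bring quiescent blood stem cells into cycle, and many interferon-stimulated genes are also expressed in blood progenitors without infection.

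Library totals were 21673761, 22614408 and 10747941 counts in P95H/+ replicates 1 to 3, and 23010510, 21104066 and 16842751 counts in WT replicates 1 to 3. Srsf2 averaged 331 ± 14.2 CPM (each count divided by the total of its library, on a scale shared by all libraries) in P95H/+ cells and 332 ± 9.79 CPM in WT cells (SD, n = 3 each). Gene counts do not show the base change itself, so they do not check the genotype. All 7 progenitor markers looked up, Kit and Mpo among them, had counts in every library. So did all markers looked up for monocytes and macrophages, B and plasma cells, mature neutrophils and erythroid cells. Detection alone therefore does not set progenitors apart from these cells. The replicate 3 libraries differed from the other 4 in GC content. Transcripts with at most 40% GC deviated from their own mean by a median log2 difference of -0.78 in P95H/+ replicate 3 and -0.56 in WT replicate 3, against 0.29 to 0.42 in the other libraries.

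RefSeq windows for GRCm38.p6, the build also called mm10, were available for 30 of the 41 genes, from 250 bases before to 50 bases after the start. Both strands were searched for the ISRE, as GAAA followed after any 2 bases by a second GAAA, and for the GAS, as TTCNNNGAA, and matches may overlap each other. An ISRE match was present in windows of 19 of the 30 genes (63.3%), against 3.99% of the 27025 genes with a window. A GAS match was present for 7 of the 30 (23.3%), against 9.55% of all genes with a window, and 4 of these 7 also held an ISRE match. The windows of the other 8 genes held neither set of letters. Such a match is a description of the letters and not a mapped binding site. The following 150 bases lie just before the start and run 5′ to 3′ on the gene's strand, with matches in capitals. They show the pair of members with the smallest genotype p, Irf1 and Oas1g, together with the close relative Oas1a and, as examples of members with only ISRE matches, Ifit1 and Isg15.
Irf1 (chr11:53769864-53770013, plus strand): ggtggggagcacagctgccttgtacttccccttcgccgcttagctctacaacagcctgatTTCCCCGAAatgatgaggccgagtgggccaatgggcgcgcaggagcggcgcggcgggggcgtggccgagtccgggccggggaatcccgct
Oas1g (chr5:120887614-120887763, minus strand): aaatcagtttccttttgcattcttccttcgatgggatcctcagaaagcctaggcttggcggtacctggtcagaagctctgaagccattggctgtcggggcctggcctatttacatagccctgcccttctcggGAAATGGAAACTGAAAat
Oas1a (chr5:120907526-120907675, minus strand): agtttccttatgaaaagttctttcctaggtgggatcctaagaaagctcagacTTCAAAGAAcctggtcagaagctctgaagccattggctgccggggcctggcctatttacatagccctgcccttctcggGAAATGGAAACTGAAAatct
Ifit1 (chr19:34640739-34640888, plus strand): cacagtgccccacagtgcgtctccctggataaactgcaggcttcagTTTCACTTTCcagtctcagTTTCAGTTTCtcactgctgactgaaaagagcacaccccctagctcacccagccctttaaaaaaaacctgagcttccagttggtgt
Isg15 (chr4:156200819-156200968, minus strand): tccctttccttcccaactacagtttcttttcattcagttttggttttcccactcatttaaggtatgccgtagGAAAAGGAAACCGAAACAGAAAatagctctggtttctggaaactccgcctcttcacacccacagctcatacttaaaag

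Irf1 has 2 RefSeq starts. The window of the upstream start, shown here, held a GAS match 90 bases before it, the window of the other start held none, and neither held an ISRE match. Oas1g held overlapping ISRE matches 18 and 12 bases before its start, and Oas1a held the same letters 20 and 14 bases before its own. The GAS match of Oas1a, 98 bases before its start, had no counterpart in Oas1g, and the aligned 150-base stretches of these neighbours were 83.2% identical. Isg15 held 3 overlapping ISRE matches, 78, 72 and 66 bases before its start, and Ifit1 held 2, at 104 and 85 bases.

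Between genes, levels differed far more than between genotypes. Per kilobase of annotated exon, Ly6e, a surface protein anchored in the membrane by a lipid, had the highest mean level over the 6 libraries at 167 CPM per kb. Psmb8, a subunit of the immunoproteasome, followed at 36.6 CPM per kb, Bst2 (tetherin, which holds budding virus at the cell surface) at 34.2 and Irf1 at 23.0. Gbp6, a guanylate-binding protein, was lowest at 0.169 CPM per kb. Its exons share 1726 bases with Gm43302 on the same strand, so that its reads may be split. Summed over the members, P95H/+ replicates 1 to 3 held 1412, 1630 and 1376 CPM, and WT replicates 1 to 3 held 1698, 1444 and 1403 CPM. Without Ly6e the sums were 845, 964 and 681 CPM in P95H/+ cells and 1112, 823 and 751 CPM in WT cells. The genotypes overlapped in both sums, and WT replicate 1 was the highest library in both.

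The comparison of P95H/+ with WT cells asks whether the members differ in cells with 1 mutant Srsf2 allele. Of the 41 members, 40 passed the filter on low counts. Ifit3, an antiviral effector, did not, with 10, 9 and 4 counts in P95H/+ replicates and 27, 2 and 10 counts in WT replicates. The Ifit3 transcript is 97.8% identical to that of Ifit3b over 1700 bases, so that the split of reads between them is uncertain. None of the 40 passed edgeR's quasi-likelihood test at a Benjamini-Hochberg adjusted p of 0.05, and neither did any of the 17144 genes tested (0%). At an unadjusted p under 0.05 edgeR listed 2 of the 40 members, Irf1 and Oas1g, against 2.11% of all genes tested. Irf1 was lower in P95H/+ cells, as were 1.41% of all genes at this threshold, and Oas1g was higher, as were 0.7%. DESeq2 called 8 genes (0.0467%) and limma voom none, while 332 genes (1.94%) and 362 genes (2.11%) had an unadjusted p under 0.05 there. None of these called genes was a member. With replicate numbers as a block, edgeR called 1 gene (0.00583%), again no member, and 3 members had an unadjusted p under 0.05, against 5.51% of all genes. Log2 fold changes of P95H/+ over WT were positive for 20 members and negative for 20, against 53.1% positive over all genes tested. The members' median was -0.02, beside 0.02 over all genes. The members' values ran from -0.99 for Iigp1, an immunity-related GTPase, to 1.37 for Oas1g, an oligoadenylate synthetase. Irf1 was the 1 member whose genotypes did not overlap in CPM, lower in P95H/+ cells, against 7.84% of all genes without overlap, of which 5.93% of genes lay lower and 1.91% higher. These are bulk samples, in which fewer cells of a type and less RNA per cell cannot be told apart.

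**Figure D1:**
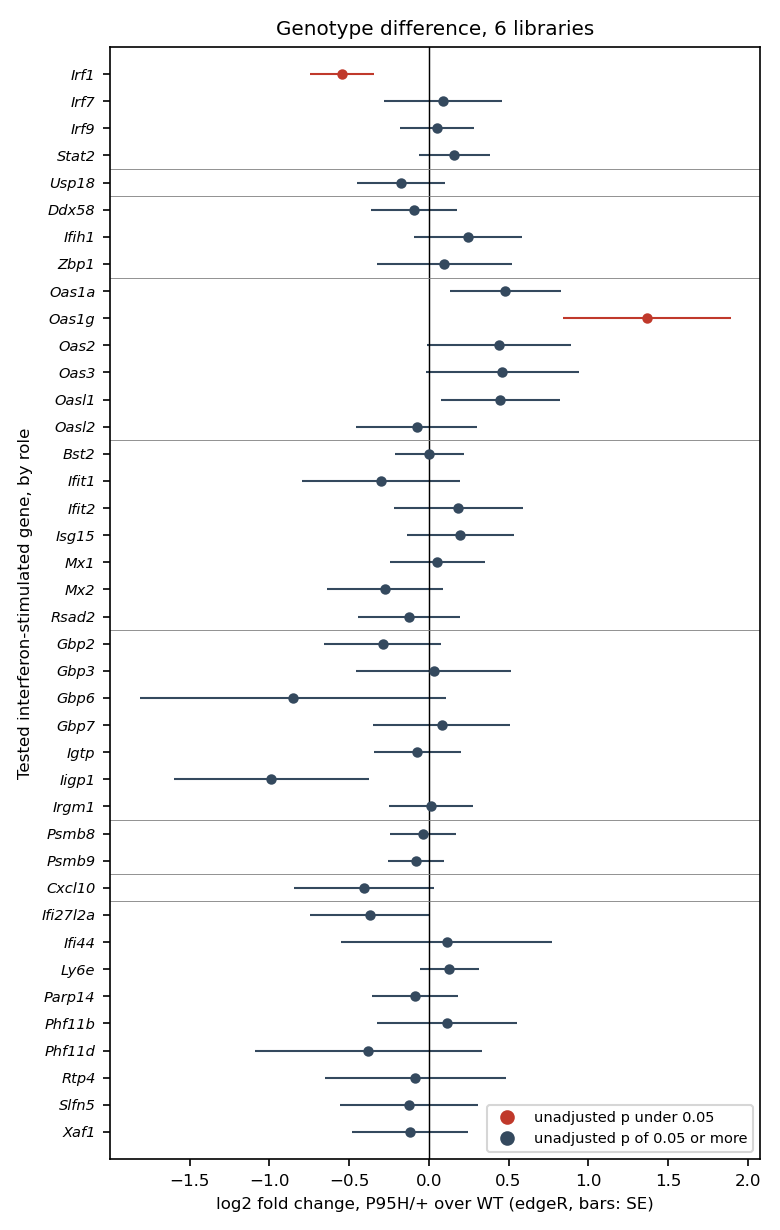
Log2 fold change of P95H/+ over WT (x axis, edgeR, bars are the SE) for the 40 tested members, grouped by role down the y axis. Red marks the 2 members with an unadjusted p under 0.05, Irf1 at -0.54 and Oas1g at 1.37, and none passed after adjustment.

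Without replicate 3 of both genotypes, 144 of 17371 genes (0.829%) passed edgeR's adjusted test, and none of the 41 members, all of which could be tested, was among them. At an unadjusted p under 0.05 there were 3 members, 2 lower and 1 higher in P95H/+ cells, against 15.6% of all genes, 9.44% lower and 6.14% higher. They were Irf1 (log2 fold change -0.55, SE 0.14, edgeR adjusted p = 0.131), Oas1g (1.53, SE 0.42, adjusted p = 0.149) and Cxcl10, a chemokine for activated T cells (-0.53, SE 0.23, adjusted p = 0.312). The members' share was below the share of all genes in this 4-library fit. There 16 of the 41 members had a positive fold change, against 49.6% of all genes. The members' median was -0.07, beside -0.00293 over all genes.

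Among the transcription factors, Irf1, which binds interferon response elements and is itself a target of interferon gamma, had the smallest unadjusted p. Irf1 (mm10 chromosome 11, 53770014 to 53778374, plus strand, protein coding) stood at 66.4, 86.0 and 64.2 CPM in P95H/+ replicates 1 to 3, against 126, 102 and 105 CPM in WT replicates 1 to 3. Every P95H/+ library lay below every WT library. The means were 72.2 ± 12.01 CPM in P95H/+ cells and 111 ± 13.0 CPM in WT cells (SD, n = 3 each). The log2 fold change was -0.54 (SE 0.20, edgeR unadjusted p = 0.027, adjusted p = 1), so that it did not pass over all genes. Exons of Irf1 share 135 bases with Gm17334 on the opposite strand, and whether reads were counted by strand is not given in the sources used here.

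The ISGF3 subunits did not follow Irf1. Irf9, the DNA-binding subunit, was at 44.5, 47.98 and 57.5 CPM in P95H/+ replicates, against 61.3, 39.0 and 52.8 CPM in WT replicates, and the genotypes overlapped (log2 fold change 0.05, SE 0.23). Stat2, which brings the activating domain, was at 28.5, 30.6 and 40.6 CPM in P95H/+ replicates, against 32.2, 31.4 and 30.6 CPM in WT replicates (0.16, SE 0.22). P95H/+ replicate 3 was the highest library for Stat2 and the other 5 lay within 28.5 to 32.2 CPM. Without replicate 3 of both genotypes both fold changes turned negative, at -0.09 for Irf9 and -0.07 for Stat2. Irf7, which amplifies type I interferon production, ranged from 9.50 to 16.7 CPM in P95H/+ cells and from 7.20 to 14.8 CPM in WT cells.

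The oligoadenylate synthetase family makes the second messenger that activates RNase L in response to double-stranded RNA, and 2 of its 6 members here are OAS-like proteins. Oas1g (mm10 chromosome 5, 120876142 to 120887613, minus strand, protein coding) stood at 2.49, 2.96 and 0.930 CPM in P95H/+ replicates 1 to 3, against 1.43, 0.474 and 0.713 CPM in WT replicates 1 to 3. P95H/+ replicates 1 and 2 lay above every WT library, while P95H/+ replicate 3 lay below WT replicate 1. The means were 2.13 ± 1.06 CPM in P95H/+ cells and 0.874 ± 0.500 CPM in WT cells (SD, n = 3 each). The fitted log2 difference was 1.37 (SE 0.52, edgeR unadjusted p = 0.033, adjusted p = 1), which did not pass over all genes. These values rest on few reads, with 54, 67 and 10 counts in P95H/+ replicates and 33, 10 and 12 counts in WT replicates.

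Transcripts of Oas1g and Oas1a, genes that neighbour each other, were 97.5% identical over 1860 aligned bases, so that the split of reads between them is uncertain. Oas1a, chosen after its values were seen, stood at 17.0, 17.9 and 13.5 CPM in P95H/+ replicates, against 16.4, 6.40 and 13.8 CPM in WT replicates (log2 fold change 0.48, SE 0.35). Of the counts of both genes, Oas1g took 12.8% (exact 95% interval 9.76 to 16.4%), 14.2% (11.2 to 17.7%) and 6.45% (3.14 to 11.5%) in P95H/+ replicates 1 to 3. It took 8.05% (5.61 to 11.1%), 6.90% (3.36 to 12.3%) and 4.90% (2.56 to 8.40%) in WT replicates 1 to 3. The intervals cover counting error only. P95H/+ replicates 1 and 2 had the largest shares, and the share in P95H/+ replicate 3 lay within the range of the WT libraries.

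Of the 6 family members, 5 had a positive fold change, none passed the test, and the median was 0.46. WT replicate 2 was the lowest library for 5 of the 6, and the family's median deviation from each gene's mean there was -1.07 on the log2 scale, against -0.08 to 0.32 in the other 5 libraries. In that library Oas2, Oas3 and Oasl1 stood at 1.52, 6.25 and 3.36 CPM. In P95H/+ cells Oas2 ranged from 4.52 to 5.12 CPM, Oas3 from 10.4 to 25.4 CPM and Oasl1 from 6.37 to 9.96 CPM.

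**Figure D2:**
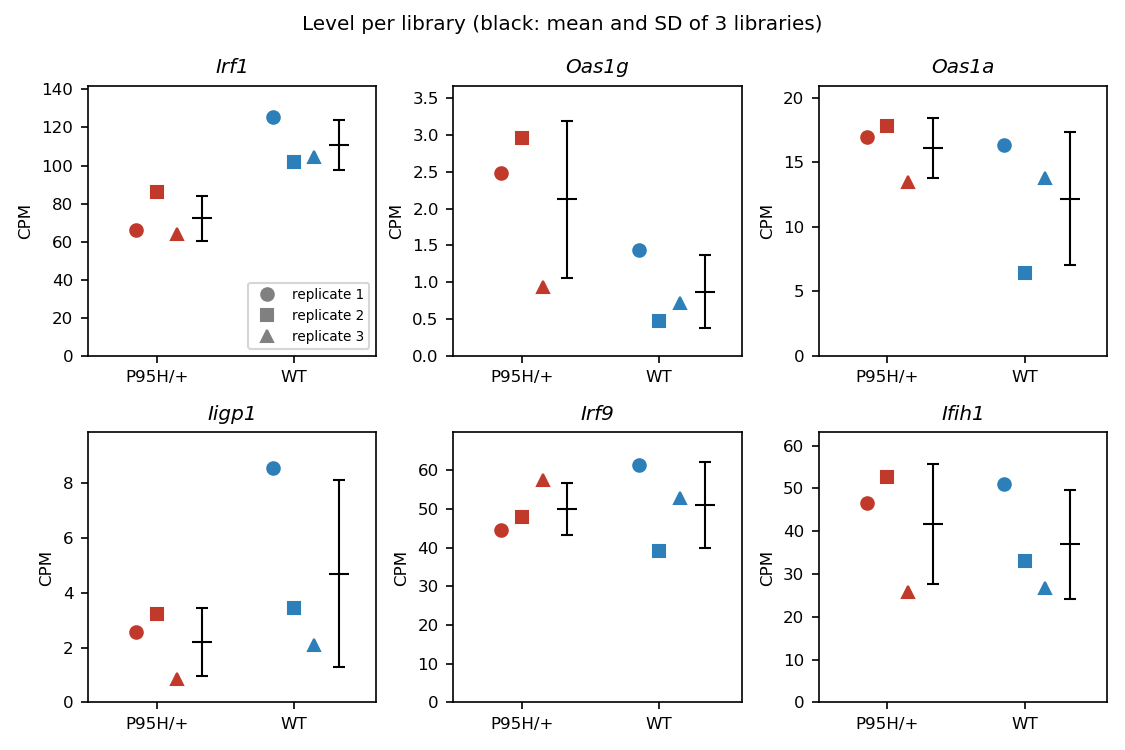
CPM (y axis) of 6 members in each library, P95H/+ left and WT right, with a marker shape per replicate number and, in black, the mean and SD of 3 libraries. Irf1 is the 1 panel without overlap between genotypes, and WT replicate 1 is the highest library for Iigp1 at 8.56 CPM; Oas1a and Iigp1 were added after their values were seen.

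The RNA sensors set off interferon production when they bind foreign or misplaced RNA. Ifih1 (MDA5, which binds long double-stranded RNA) was at 46.6, 52.7 and 25.9 CPM in P95H/+ replicates, against 51.0, 32.98 and 26.7 CPM in WT replicates (log2 fold change 0.24, SE 0.34). Its lowest library in each genotype was replicate 3, and the genotypes overlapped. Ddx58 (RIG-I) ranged from 20 to 25.5 CPM in P95H/+ cells and from 19.2 to 35.2 CPM in WT cells, and Zbp1, a sensor of Z-form nucleic acids, from 2.08 to 3.35 CPM and from 1.61 to 4.43 CPM. Usp18, a protease that removes Isg15 from proteins and restrains the receptor, ranged from 3.35 to 4.38 CPM in P95H/+ cells and from 3.32 to 5.74 CPM in WT cells.

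The direct antiviral effectors had a median log2 fold change of 0.00 over the 7 tested. Bst2 was at 29.8, 35.7 and 24.8 CPM in P95H/+ replicates, against 28.6, 29.5 and 36.7 CPM in WT replicates (log2 fold change 0.00, SE 0.21). Its highest libraries were P95H/+ replicate 2 and WT replicate 3. Ifit2 was the next most abundant, from 19.3 to 36.1 CPM in P95H/+ cells and from 14.9 to 40.8 CPM in WT cells. Ifit1, Isg15, a ubiquitin-like modifier, and the dynamin-like GTPases Mx1 and Mx2 lay between 1.02 and 3.60 CPM in every P95H/+ library and between 1.37 and 5.22 CPM in every WT library. Rsad2 (viperin) ranged from 8.49 to 14.1 CPM in P95H/+ cells and from 10.1 to 18.0 CPM in WT cells. Mx2 is annotated as a polymorphic pseudogene in this strain's reference, and its transcript shares 843 bases at 95.3% identity with Mx1.

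The guanylate-binding proteins and immunity-related GTPases assemble on the membranes around intracellular pathogens. Gbp3 was at 73.3, 86.8 and 25.2 CPM in P95H/+ replicates, against 83.7, 70.4 and 34.9 CPM in WT replicates (log2 fold change 0.03, SE 0.49). Gbp7 was at 64.6, 69.8 and 32.5 CPM in P95H/+ replicates, against 80.8, 56.5 and 27.7 CPM in WT replicates (0.08, SE 0.43). In both genes each replicate 3 library lay below the other 4 libraries, and within the replicate numbers the genotypes did not order the same way. Irgm1, which also supports blood stem cell renewal in mice, was at 42.4, 45.3 and 33.3 CPM in P95H/+ replicates, against 56.5, 36.7 and 32.7 CPM in WT replicates (0.01, SE 0.26). Iigp1, chosen after its values were seen as the lowest fold change of the members, was at 2.58, 3.23 and 0.837 CPM in P95H/+ replicates, against 8.56, 3.46 and 2.08 CPM in WT replicates (-0.99, SE 0.61, edgeR unadjusted p = 0.150). WT replicate 1 was the highest library for 6 of the 7 GTPases. Gbp7 shares 637 exon bases with the pseudogene Gm43802 on its own strand, so that its reads may be split.

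The immunoproteasome subunits, which shape peptides for MHC class I, differed little between most libraries. Psmb8 was at 128, 138 and 91.7 CPM in P95H/+ replicates, against 132, 135 and 118 CPM in WT replicates (log2 fold change -0.04, SE 0.21). Psmb9 was at 57.8, 65.4 and 53.1 CPM in P95H/+ replicates, against 66.4, 62.5 and 67.6 CPM in WT replicates (-0.08, SE 0.18). WT replicate 1 was the highest library for neither. Both genes have exons that overlap a gene on the opposite strand.

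Of the remaining members, Ly6e was at 567, 666 and 695 CPM in P95H/+ replicates, against 586, 621 and 652 CPM in WT replicates (log2 fold change 0.13, SE 0.18). Parp14, an enzyme that attaches ADP-ribose to proteins, was at 55.4, 65.4 and 41.8 CPM in P95H/+ replicates, against 78.0, 58.9 and 44.5 CPM in WT replicates (-0.09, SE 0.27). The genotypes overlapped for both. Ifi44, Ifi27l2a, Rtp4, Xaf1, Phf11b, Phf11d and Slfn5 lay between 0.744 and 6.64 CPM in P95H/+ libraries and between 0.569 and 9.34 CPM in WT libraries, and WT replicate 1 was highest for each of these 7. Cxcl10 ranged from 4.37 to 9.86 CPM in P95H/+ cells and from 4.69 to 12.3 CPM in WT cells.

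What the members shared was a pattern across libraries, in which both the highest and the lowest mean levels were in WT libraries. WT replicate 1, the 54-week female, was the highest library for 28 of the 41 members. Among the 40 tested members this was 27 (67.5%), against 22.7% of all genes tested. The mean deviation of the members from their own 6-library means was 0.05, 0.24 and -0.20 on the log2 scale in P95H/+ replicates 1 to 3, and 0.55, -0.32 and -0.32 in WT replicates 1 to 3. WT replicate 1 thus stood above every other library and WT replicates 2 and 3 below every P95H/+ library, with a pooled SD within genotypes of 0.39. Medians over all genes lay between -0.01 and 0.04 in every library. WT replicate 2 was the lowest library for 16 of 41 members, against 7.03% of all genes tested, and P95H/+ replicate 3 for 15, against 35.4%.

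**Figure D3:**
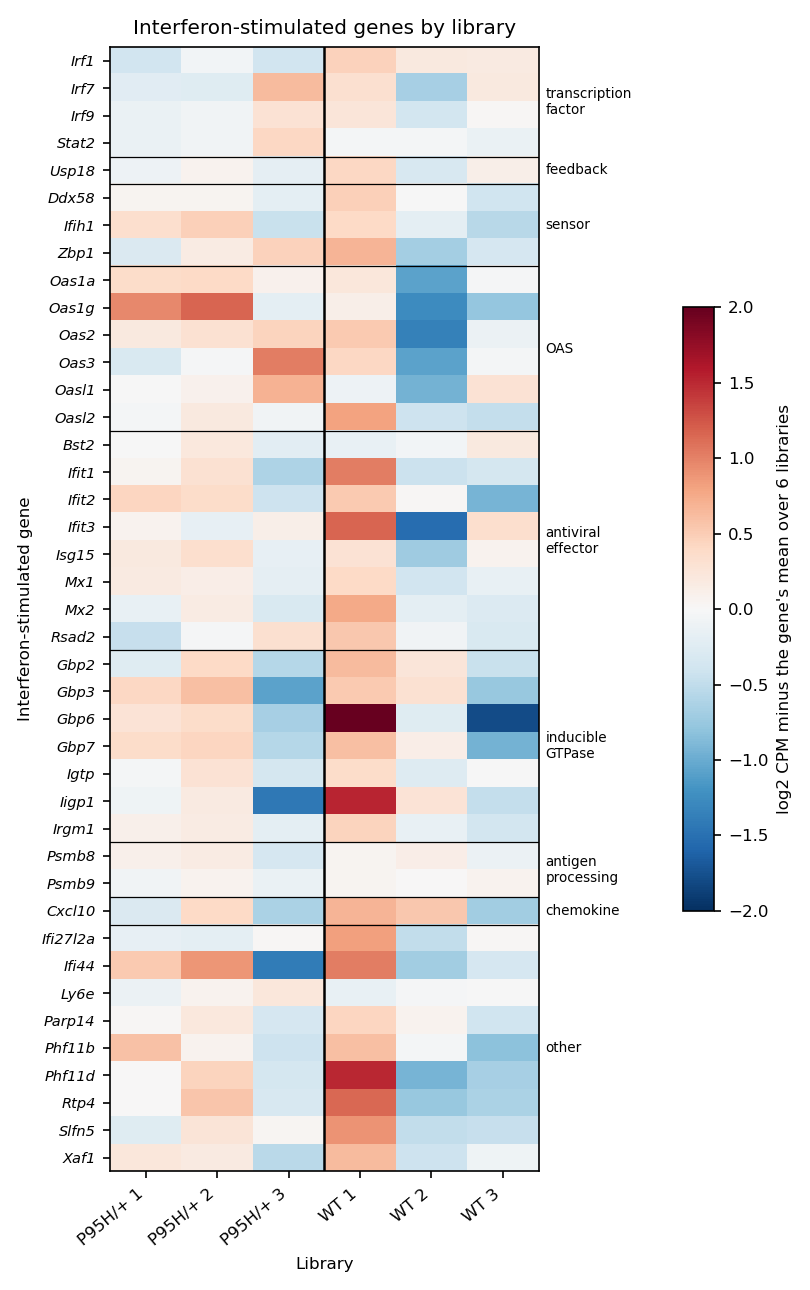
Log2 CPM of each of the 41 members minus that gene's mean over the 6 libraries (colour, red above and blue below, cut at 2 in either direction), with libraries along the x axis and members by role down the y axis. The WT replicate 1 column is red for most members, with a mean deviation of 0.55 over the 40 tested, and WT replicate 2 is bluest among the OAS genes.

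Set against WT replicates 2 and 3, WT replicate 1 was higher by a median log2 difference of 0.77 over the 40 members, beside 0.03 over all genes. It exceeded WT replicate 2 by at least 2-fold in 15 of the 40 members, against 2.15% of all genes tested. With transcript GC content corrected for, WT replicate 1 was still the highest library for 25 of the 40 members, against 11.6% of all genes, and the members' mean deviation there was 0.47. The 8 T and NK cell markers looked up summed to 4.57, 3.05 and 6.51 CPM in P95H/+ replicates and to 13.8, 5.69 and 4.93 CPM in WT replicates, all 8 detected in each library except for 1 marker at 0 in P95H/+ replicate 1. Ifng, the interferon that these cells are known to make, had 1, 0 and 1 counts in P95H/+ replicates and 11, 5 and 1 counts in WT replicates. The 6 plasmacytoid dendritic cell markers summed to 33.3, 40.7 and 31.8 CPM in P95H/+ replicates and to 38.5, 36.4 and 42.7 CPM in WT replicates. Without Bst2, itself a member, the other 5 summed to 3.55, 4.95 and 6.98 CPM in P95H/+ replicates and to 9.87, 6.92 and 6.00 CPM in WT replicates. Klk1 was at 0 in WT replicates 2 and 3. The T and NK cell sum, the sum without Bst2 and Ifng were highest in WT replicate 1. The sum with Bst2 was highest in WT replicate 3, and the part of these cells in the result was not tested. Of the single markers, Gzma and Cox6a2 were highest in WT replicate 2, Bst2 in WT replicate 3 and Klk1 in P95H/+ replicate 3. The other marker sums were highest in other libraries. Those of mature neutrophils, B and plasma cells and erythroid cells were highest in P95H/+ replicate 3. Those of progenitors and of monocytes and macrophages were highest in WT replicate 3, and that of stroma and endothelium in P95H/+ replicate 2. WT replicate 1 differed from WT replicates 2 and 3 in both sex and age, and these cannot be told apart.

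The pattern was present in members with and without an ISRE match. WT replicate 1 exceeded WT replicates 2 and 3 by a median of 0.75 in the 18 tested members with a match, 0.56 in the 11 with a window but no match and 1.06 in the 11 without a window. Their median log2 fold changes of P95H/+ over WT were 0.02, -0.04 and -0.09.

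Of the libraries left out in turn, this one moved the members' median genotype difference most. Without WT replicate 1, 33 of 40 members had a positive log2 fold change, against 55% of all genes tested. The median was 0.28, beside 0.03 over all genes, and none of the members passed the test. Without any 1 of the other 5 libraries the median lay between -0.17 and -0.01. With all 6 libraries, the median took either sign under other settings, from -0.20 with sex as a covariate to 0.05 with the GC correction and the replicate block. With sex as a covariate 11 of the 40 members had a positive fold change, against 45.8% of all genes, and 4 had an unadjusted p under 0.05 in edgeR, against 5.06%. Within the females, P95H/+ replicates 1 and 2 differed from WT replicate 1 by a median of -0.33. Higher in P95H/+ cells were 7 of 40 members, against 8803 of the 17144 genes tested. Within the males, P95H/+ replicate 3 differed from WT replicates 2 and 3 by a median of 0.05. Higher in P95H/+ cells were 23 of 40 members, against 8858 of the 17144 genes tested. P95H/+ replicates 1 and 2 lay above WT replicate 2 in 33 of the 40 members, against 8584 of the 17144 genes tested. The median over the members was 0.38, although sex differs between these libraries.

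**Figure D4:**
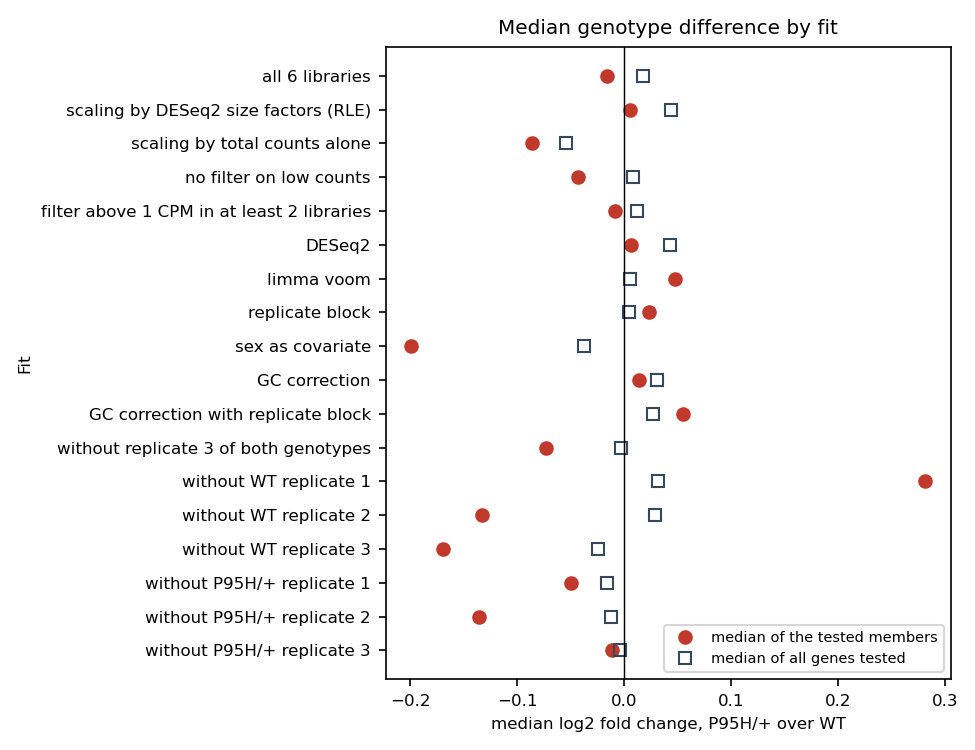
Median log2 fold change of P95H/+ over WT (x axis) in each fit (y axis), with the tested members as red circles and all genes tested as open squares. The members' median is -0.02 with all 6 libraries and 0.28 without WT replicate 1, while the median over all genes stays near 0.

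A genotype-by-sex interaction, added after the data were seen, took the difference in females minus that in males. edgeR called 1 of 17144 genes (0.00583%), no member, and 5 of the 40 members had an unadjusted p under 0.05, against 7.37% of all genes. All 5 were negative, at -2.07 for Oas3, -1.72 for Zbp1, -1.39 for Slfn5, -1.27 for Rsad2 and -1.10 for Oasl2. The female WT library in this contrast is the single one at 54 weeks, so that sex and age cannot be told apart here either.

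The replicate 3 libraries gave the members a second shared pattern, which followed the GC content of their transcripts. The 20 members with the lower GC content (39.3 to 49.0%) had a median log2 difference of -0.76 between the replicate 3 libraries and the other 4, and 19 of them lay lower. The 20 members with the higher GC content (49.4 to 56.3%) had a median of 0.01, with 10 lower and 10 higher. Across the 40 members the difference correlated with GC content at Pearson's r = 0.82 and Spearman's rho = 0.80, and across 17078 genes at 0.67 and 0.71. The members share the same 6 libraries and are not independent of each other, so these coefficients are descriptions.

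**Figure D5:**
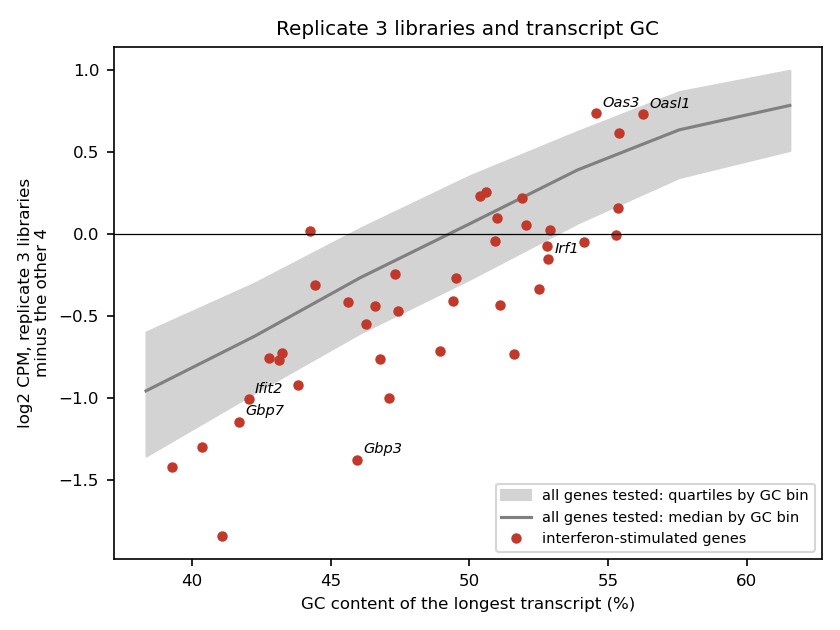
Log2 CPM in the replicate 3 libraries minus the other 4 (y axis) against transcript GC content in percent (x axis), for the 40 tested members (red) and for all genes tested as the median and quartiles by GC bin (grey). The members lie along and mostly below the grey line, with a median of -0.76 among the 20 of lower GC content and 0.01 among the other 20.

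Genes upstream of the members were measured from lists chosen by function. Of 34 ligands, receptors and signalling genes, 26 were found and 23 tested, none passed edgeR's test with all 6 libraries, and none had an unadjusted p under 0.05. Their median log2 fold change was 0.03, with 14 of the 23 positive, against 53.1% of all genes tested. Ifnar1, a subunit of the type I receptor, was at 80.6, 86.0 and 86.0 CPM in P95H/+ replicates, against 91.7, 94.4 and 101 CPM in WT replicates, without overlap in CPM (log2 fold change -0.11, SE 0.17). Of the 23 tested it was the 1 without overlap, against 7.84% of all genes tested, 5.93% lower in P95H/+ cells. CPM uses library totals alone, without the further scaling of edgeR's test. Ifnb1 had 1, 1 and 0 counts in P95H/+ replicates and 1, 2 and 0 counts in WT replicates, so that its transcript was near the limit of detection. Ifnz, another type I interferon, was too low to test, with 3, 5 and 2 counts in P95H/+ replicates and 2, 1 and 1 counts in WT replicates. Its CPM did not overlap, but P95H/+ replicate 3 and WT replicate 1 had 2 counts each and differed only in library total. The most abundant were the receptor subunit Ifngr1, from 339 to 380 CPM in P95H/+ cells and from 278 to 392.3 CPM in WT cells, the kinase Jak1, from 252 to 280 CPM and from 206 to 308 CPM, and the myeloid factor Irf8, from 286 to 366 CPM and from 285 to 391 CPM.

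Socs3, a feedback inhibitor of Jak kinases, was the 1 listed gene to pass in the 4 libraries without replicate 3, and is named for that reason. It was 1 of the 23 signalling genes tested there, with 0 of 21 sensing genes and 0 of 60 other interferon-stimulated genes, against 0.829% of all genes. It stood at 11.1, 13.4 and 20 CPM in P95H/+ replicates, against 41.6, 27.4 and 15.6 CPM in WT replicates. In replicates 1 and 2 alone it was lower in P95H/+ cells, by 1.46 on the log2 scale (SE 0.20, edgeR adjusted p = 0.039), whereas with all 6 libraries it did not pass (-0.85, SE 0.41, edgeR adjusted p = 1). Those 4 libraries set females at 32 weeks against a female at 54 weeks and a male at 32 weeks, so that genotype is not separated from sex and age.

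Of 24 symbols listed for nucleic acid sensing, 21 were found and tested. The list gave Mb21d1 also as Cgas and Tmem173 also as Sting1, so that only the gene Trex1 was not found. None of the 21 genes passed or had an unadjusted p under 0.05. Of these genes 16 had a positive fold change, against 53.1% of all genes tested, with a median of 0.14. Traf6, a ubiquitin ligase of Toll-like receptor signalling, was at 82.7, 87.6 and 86.0 CPM in P95H/+ replicates, against 91.7, 95.4 and 91.0 CPM in WT replicates, without overlap in CPM (log2 fold change -0.04, SE 0.17). It was 1 of the 21 without overlap, against 7.84% of all genes tested, 5.93% lower in P95H/+ cells. With edgeR's scaling, P95H/+ replicate 3 lay 0.0014 above the mean of WT replicates 2 and 3 on the log2 scale. WT replicate 1 was the highest library for 4 of these 21 genes and for 7 of the 23 ligands, receptors and signalling genes. The most abundant were Unc93b1, from 202 to 302 CPM in P95H/+ cells and from 186 to 277 CPM in WT cells, Trim25, from 116 to 148 CPM and from 116 to 175.7 CPM, and Samhd1, from 101 to 134 CPM and from 100.5 to 145 CPM.

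Of 65 other interferon-stimulated genes, 63 were found and 59 tested. None passed, and 2 guanylate-binding proteins (3.39% of the 59) had an unadjusted p under 0.05 in edgeR, against 2.11% of all genes tested. Gbp4 was at 0.692, 1.24 and 0.837 CPM in P95H/+ replicates, against 7.39, 1.23 and 1.78 CPM in WT replicates (log2 fold change -1.83, SE 0.71). Gbp8 was at 0.600, 0.752 and 0.372 CPM in P95H/+ replicates, against 3.74, 1.23 and 0.831 CPM in WT replicates (-1.64, SE 0.61). Both were highest in WT replicate 1. Across the 59, 22 were positive, against 53.1% of all genes tested, with a median of -0.05. WT replicate 1 was the highest library for 30 (50.9%), between the share of the members and that of all genes. The genotypes did not overlap for 4 of the 59, with Oas1c higher in P95H/+ cells and Gbp8, Ly6a and Trafd1 lower. Over all genes tested 7.84% did not overlap, 1.91% higher and 5.93% lower. Gbp10 was too low to test, with 1, 0 and 0 counts in P95H/+ replicates and 8, 1 and 2 counts in WT replicates. Its CPM did not overlap only because P95H/+ replicate 1 and WT replicate 2, at 1 count each, differed in library total. The most abundant of this list were the MHC class I genes H2-D1, H2-K1 and B2m, at 186 to 855 CPM in P95H/+ libraries and 217 to 779 CPM in WT libraries.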

How the data were processed

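Ribosome-depleted total RNA was made into stranded libraries and read in pairs of 150 bases, per the labels' protocols. The submitters' processing notes give mm10 as the build and list STAR 2.5.3a, Subread 1.5.1 with featureCounts, Picard 1.96, limma, edgeR, cutadapt and Trim Galore. The authors deposited raw counts per gene, from which all results start. The authors' deposited CPM equal each count divided by its library total, or in their filtered table by the total of its 15466 genes, within 5e-04. Totals ran from 10747941 to 23010510 counts. Genotypes were compared on the counts with edgeR 4.0.16 in R 4.3.3 (TMM scaling, filterByExpr, robust quasi-likelihood F test, two-sided, Benjamini-Hochberg over all genes tested, threshold 0.05), a script also tested on simulated data. DESeq2 1.42.0, limma 3.58.1 (voom), other scalings and filters, sex, a GC correction (natural spline with 4 degrees of freedom as an offset), the replicate block and leaving out libraries were alternatives. Log2 CPM for deviations used TMM scaling and 2 added counts. Genes came from GENCODE M21, which holds 25878 of the 26027 identifiers, and promoter windows from RefSeq.

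The members, lists and alternatives were chosen with earlier results of these data known. Values in every library are given for members whose genotypes do not overlap or whose unadjusted p is under 0.05, and for the 12 with the highest mean CPM. In the other lists, genes that meet the same criteria and the 3 most abundant are named. Some listed genes are not reported here. Deviations from group means correlated for the same replicate number in both genotypes (0.372, 0.348 and 0.613 for numbers 1 to 3), over the limit of 0.1 set for pairing, so that the blocked fit was kept beside the unblocked one. P95H/+ replicate 2 with WT replicate 1 (0.463) and P95H/+ replicate 1 with WT replicate 2 (0.386) lay above the values of numbers 1 and 2, so that the data do not tie these 2 numbers to each other specifically, and the labels say no more about them. Sex and age show at least 2 mice per genotype. The labels do not say whether P95H/+ replicates 1 and 2, or WT replicates 2 and 3, came from separate mice, and the spread within those pairs may be technical. Exons of 9 members overlap a gene on the opposite strand, and the transcripts of 10 are at least 95% identical to another gene's over 300 bases or more.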

Additional observations from a re-analysis of the deposited data

How the results depend on the processing

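No member passed the adjusted test in any fit, and the smallest adjusted p of a member was 0.131, for Irf1 without replicate 3 of both genotypes. Genes called over the whole table numbered 8 with DESeq2, 1 with the replicate block, 1 with the GC correction and replicate block, and 144 without replicate 3 of both genotypes, against 0 with all 6 libraries; the blocked fit changed no call of a member. With sex as a covariate 4 members had an unadjusted p under 0.05 in edgeR and 11 a positive fold change, against 2 and 20. Over all genes 5.06% had an unadjusted p under 0.05, against 2.11%, and 45.8% were positive, against 53.1%. The cause was not tested. Of the 13 members given in full, Irf1, Oas1g, Ly6e and Psmb9 kept their sign in all 17 other fits, and 39 of the 221 values turned sign. These were, as log2 fold changes of P95H/+ over WT, Irf9 -0.031, Bst2 -0.068, Gbp3 -0.027 and Irgm1 -0.057 under scaling by total counts (which moved the median of all genes to -0.05), Bst2 -0.00515 with no filter and -0.00903 with the filter above 1 CPM, Gbp3 -0.0165 with voom and -0.037 with the replicate block, and Bst2 -0.012 with the GC correction and block. With sex they were Bst2 -0.017, Gbp3 -0.47, Gbp7 -0.24, Irgm1 -0.13 and Ifih1 -0.036, and without replicate 3 of both genotypes Irf9 -0.086, Stat2 -0.073, Irgm1 -0.057 and Psmb8 0.027. Leaving out 1 library at a time gave 0 to 1 genes called, 0 members called, 0 to 2 members with an unadjusted p under 0.05, 12 to 33 positive members and a median of -0.17 to 0.28. The log2 fold changes then ran from -0.67 to -0.45 for Irf1, -0.10 to 0.20 for Irf9, -0.034 to 0.24 for Stat2, 1.07 to 1.94 for Oas1g, -0.11 to 0.11 for Bst2, -0.27 to 0.39 for Gbp3, -0.24 to 0.45 for Gbp7, -0.14 to 0.28 for Irgm1, 0.05 to 0.54 for Ifih1, -0.27 to 0.13 for Parp14, 0.04 to 0.19 for Ly6e, -0.13 to 0.10 for Psmb8 and -0.14 to -0.04 for Psmb9. P95H/+ replicate 3, with the fewest counts, limits the members with the fewest reads, such as Oas1g with 10 counts there.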
